A study of Mus musculus with 5 samples.

Results

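A mouse transcript can be listed under the name of the cDNA clone that first captured it, where no gene symbol was assigned to the transcript. Its locus can still hold a named gene. Isoforms of this kind were taken from the deposited isoform table by name: the isoform suffix was removed, and symbols made of AK, BC, DQ, AB, AF, AY or BB and a run of 5 or 6 digits were kept. The rule leaves out AK149240 and uses no measured value. It found 2848 isoforms of the 50356 in the table, under 1215 symbols of 15154. AK clones gave 1789 isoforms under 858 symbols, BC clones 948 under 278, DQ clones 65 under 64, AF clones 23 under 5, AB clones 17 under 5, AY clones 5 under 4, and 1 isoform had a BB name. Reference transcripts made up 757 of the isoforms, and 2091 were assembled from the reads and share at least a splice junction with a reference transcript.

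The study compared dorsal root ganglion (DRG) neurons, the sensory neurons of the peripheral nervous system, with cerebellar granule neurons (CGNs) of the central nervous system. Both came from C57bl/6j mice at postnatal day 8 and were grown on poly-d-lysine and laminin, and polyadenylated RNA was sequenced from 3 DRG and 2 CGN cultures. DRG neurons were kept for 16 days in vitro with nerve growth factor and fluorodeoxyuridine, a drug against dividing cells, each replicate pooling the ganglia of a pair of mice, and CGNs were kept for 16 hours, each replicate from 1 mouse. Cell type and time in culture cannot be told apart. The DRG cultures were not wholly neuronal, and p-values cover no more than the variation among the 5 cultures.

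AK names belong to full-length cDNAs of the RIKEN mouse collection and BC names to those of the Mammalian Gene Collection. Such clones can be messenger RNAs whose gene had not been named, parts of named genes (an intron, an alternative end), or long noncoding RNAs, a class that includes nuclear RNAs such as Malat1 and Miat and the precursors of many microRNAs. A microRNA is cut from a hairpin in a longer precursor, and its seed, bases 2 to 8, pairs with target messenger RNAs. Nervous tissue is known for many transcripts of this kind.

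In the table, the locus of an isoform is the interval of the assembled bundle it belongs to (mm9 coordinates), so unlike symbols can share a locus. The 2848 isoforms lay in 1092 loci with a median length of 24834 bp (53 to 1099027 bp). GENCODE M1, an annotation on the same assembly, placed a protein-coding gene in the locus of 883 symbols, a noncoding transcript but no coding gene in 190, only a pseudogene or small RNA in 13, and nothing in 129. For 761 symbols an M1 gene covered at least 50% of the locus and the locus at least 50% of the gene, 592 of these genes being protein-coding and 164 noncoding. RefSeq (GRCm38.p6, used for names only) still lists 14 of the 1215 as current symbols and 9 as synonyms, among them BC030045 (Zfp651) and BB146404 (Calhm5).

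Of the loci, 44 under 43 symbols contained 51 named microRNA genes of GENCODE M1. Their mature sequences, as RefSeq gives them for GRCm38.p6, are shown because these loci carried some of the greatest differences between the cell types (the group was singled out after its values were seen). Each line is 1 arm of a microRNA whose locus holds a clone that passed the test, 5′ to 3′, with the seed in capitals. Not every such microRNA is shown: Mir421, Mir374 and Mir124a-1, for example, also lie in loci of this kind.
mmu-miR-9-5p: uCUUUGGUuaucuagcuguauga
mmu-miR-128-3p: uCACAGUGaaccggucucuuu
mmu-miR-132-3p: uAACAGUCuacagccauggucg
mmu-miR-212-3p: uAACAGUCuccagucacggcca
mmu-miR-335-5p: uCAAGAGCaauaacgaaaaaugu
mmu-miR-670-5p: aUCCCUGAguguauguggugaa
mmu-miR-101a-3p: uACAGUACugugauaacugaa
mmu-miR-344-3p: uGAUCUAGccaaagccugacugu
mmu-miR-344c-3p: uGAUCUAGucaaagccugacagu
mmu-miR-22-3p: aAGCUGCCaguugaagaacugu
mmu-miR-196a-5p: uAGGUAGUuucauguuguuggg
The miR-132 and miR-212 arms share the seed AACAGUC and lie in the same locus, and those of miR-344 and miR-344c share GAUCUAG and do likewise. All but miR-22 and miR-196a come from loci with at least 1 clone that was lower in DRG neurons.

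For loci that overlap no named gene and match an M1 gene, the 150 bases before that gene's start were read from the NCBIM37 sequence, whose chromosome lengths are those of mm9. The windows of the 2 symbols with the greatest difference in each direction are given on the gene's strand, with matches to CAGATG and CAGCTG (forms of the E-box, bound by basic helix-loop-helix factors), TATAAA (the TATA box) and CCAAT in capitals, each searched on both strands. None of these motifs contains another, and CAGCTG is its own reverse complement. AK142847 (D930028M14Rik, protein-coding, chr7:25937326-25937475, plus strand) and BC026913 (1700020I14Rik, a lincRNA, chr2:119419883-119420032, plus strand) were higher in DRG neurons. AK089118 (E530001K10Rik, a processed transcript, chr2:94104916-94105065, minus strand) and BC020535 (protein-coding under its own name, chr2:152891541-152891690, plus strand) were lower.
AK142847: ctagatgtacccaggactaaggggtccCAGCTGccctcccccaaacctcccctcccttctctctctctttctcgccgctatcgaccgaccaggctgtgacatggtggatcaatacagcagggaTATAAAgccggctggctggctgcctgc
BC026913: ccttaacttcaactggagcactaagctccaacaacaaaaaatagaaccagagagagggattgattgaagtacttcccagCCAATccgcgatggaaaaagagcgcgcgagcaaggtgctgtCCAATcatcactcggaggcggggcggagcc
AK089118: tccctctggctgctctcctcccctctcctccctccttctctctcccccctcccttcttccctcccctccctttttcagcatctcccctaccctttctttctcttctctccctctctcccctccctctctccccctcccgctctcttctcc
BC020535: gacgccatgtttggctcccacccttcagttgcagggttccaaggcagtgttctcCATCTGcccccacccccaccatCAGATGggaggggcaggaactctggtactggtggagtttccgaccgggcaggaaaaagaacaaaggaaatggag
The AK142847 window held CAGCTG and TATAAA, that of BC026913 a pair of CCAAT matches, that of BC020535 CAGATG on both strands, and the pyrimidine-rich window of AK089118 none. Over 31897 windows of this length before M1 genes, CAGATG was present in 8.07%, CAGCTG in 7.96%, TATAAA in 8.67% and CCAAT in 24.7%. Among the 67 higher symbols of this kind 4, 8, 2 and 22 windows held the respective motifs, and among the 41 lower symbols 4, 2, 2 and 10. The median GC content was 62% and 61.3% in these windows and 53.3% over all. A match here is a description of the letters only.

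Levels are in FPKM (fragments per kilobase of transcript and amount of library, here with upper-quartile normalization), and 50 FPKM is the level that the study took as reliable. At least 50 FPKM was listed in every DRG library for 680 isoforms (23.9%, against 33.5% of all isoforms in the table) and in both CGN libraries for 899 (31.6% against 39.1%), and 425 met this in all 5 libraries. Listed at 0 in all 5 libraries were 304 of the 2848 (10.7%, against 3.67% of all isoforms and 1.95% of those with gene names). Of the 304, 212 had AK names, 55 DQ names, 36 BC names and 1 an AB name, and the 55 were most of the 65 DQ isoforms, whose median locus was 90 bp long. Isoforms with RIKEN clone symbols, another class of provisional names, were at 0 in 3.25%. Unnamed isoforms took 3.02%, 3.24% and 3.16% of the total FPKM in the DRG libraries and 3.85% and 3.66% in the CGN libraries. Without the mitochondrial chromosome these shares were 1.69%, 2.12% and 2.23% against 3.18% and 2.996%, and the CGN shares lay above all DRG shares.

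As checks on the labels, 9 of 9 sensory neuron genes tested were higher in DRG neurons (summed FPKM 414772 to 582724 in DRG and 702.1 to 731.5 in CGN libraries, with Trpv1, Isl1 and Scn10a at 0 in both CGN libraries), and 9 of 9 granule neuron genes were lower (4420 to 9668 against 207653 and 318343, with Pax6, Barhl1, Gabra6, Neurod2 and Nhlh1 at 0 in every DRG library). Other cells moved with cell type too. Of 9 Schwann and satellite glia genes 7 were higher and 1 lower (91118 to 142682 against 22517 and 31183, Dhh at 0 in both CGN libraries), of 8 fibroblast genes 6 were higher (49622 to 96618 against 3997 and 10228), of 6 astrocyte and Bergmann glia genes 5 were lower and 1 higher (953.0 to 1432 against 16705 and 24289, Aqp4 at 0 in every DRG library), of 5 tested microglia genes 5 were lower (285.9 to 1399 against 5248 and 8569, Aif1 and Cx3cr1 at 0 in every DRG library), and of 4 Purkinje cell genes 3 were lower (163.4 to 6290 against 5760 and 11577, Pvalb at 0 in every DRG library). The endothelial list, of which 1 gene of 3 tested was lower, overlapped between cell types (1803 to 2284 against 1424 and 2558). The part of these cells in the results below was not tested, and fewer cells of a type and less RNA per cell cannot be told apart in bulk RNA. Total FPKM was 51860686 to 62824363 in DRG and 22444463 and 37275184 in CGN libraries.

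Isoforms at 50 FPKM or more in at least 2 libraries were tested with limma on log2(FPKM + 50), with Benjamini-Hochberg adjustment over all 33587 isoforms tested and an adjusted p under 0.05 as the threshold. Of the 2848 unnamed isoforms 1644 could be tested, and 98 were higher and 155 lower in DRG neurons. That is 5.96% and 9.43% of those tested, where 9.63% of all isoforms tested were higher and 5.04% lower. Their median log2 difference (DRG minus CGN) was 0.15, against 0.38 over all isoforms. The DRG and CGN libraries did not overlap in any of the 253. Selection by the test favours this, and the count for all called isoforms was not taken. At an unadjusted p under 0.05 the count was 509, or 31%, against 30.9% of all isoforms tested. The filter favours isoforms confined to a cell type: 188 of the 1644 (11.4%) reached 50 FPKM only in CGN libraries and 302 (18.4%) only in DRG libraries, against 6.31% and 15.6% of all isoforms tested.

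These counts rest on few libraries. The number higher was 9, 20 and 17 without DRG replicate 1, 2 and 3, and 41 and 98 without CGN replicate 1 and 2, and the number lower was 15, 38 and 35, and 13 and 11. Without a CGN library, isoforms listed in CGNs alone reach 50 FPKM in a single library and leave the test, and with the isoforms kept as tested in all libraries (an alternative chosen after seeing the data) the counts were 19 and 68 higher and 153 and 156 lower. Of the single isoforms named below, 21, 18 and 21 lost their call without DRG replicate 1, 2 and 3, and 25, 27 and 25 kept the same result. Without a CGN library, named isoforms at 50 FPKM in CGNs alone left the test, so their calls cannot be followed there. Scaling moved the split: of the unnamed isoforms called, 38.7% were higher with FPKM as deposited, 29.6% after quantile normalization, 26.6% after median ratio scaling and 21.5% after scaling to equal totals (65.6%, 48.7%, 45.7% and 37.7% of all isoforms called), as the median difference over all isoforms went from 0.38 to 0.00, -0.135 and -0.30.

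Summing the isoforms of each symbol gave a second view with less spread. The median coefficient of variation over the DRG libraries was 0.87 for 1083 isoforms of symbols with several, 0.43 for the sums of their 397 symbols and 0.45 for 378 symbols with a single isoform. Of 871 symbols tested, 163 were higher (18.7%, where 28.4% of all 13275 symbols tested were) and 126 lower (14.5%, where 9.22% were), with a median of 0.28 against 0.59 over all symbols. The filter bears on this too. Of the 871, 77 (8.84%) reached 50 FPKM only in CGN libraries and 116 (13.3%) only in DRG libraries, against 3.4% and 6.62% of all symbols tested. Leaving out CGN replicate 1 brought the higher symbols to 89 (55 with the symbols kept as tested in all libraries), and without CGN replicate 1 or 2 the lower symbols were 35 or 25 (94 or 98 with the symbols kept). Without a DRG library the counts were 166 to 187 higher and 139 to 151 lower.

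**Figure D1:**
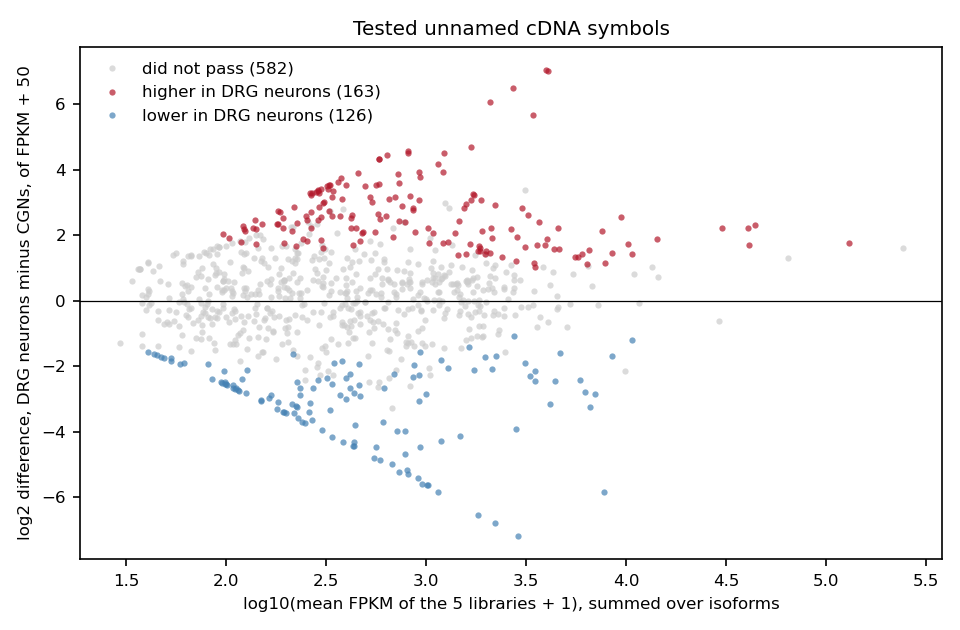
Log2 difference of FPKM + 50 (DRG neurons minus CGNs, y axis) against the mean level of the 5 libraries on a log10 scale (x axis) for each of the 871 unnamed cDNA symbols tested, summed over isoforms. Red points (163) passed the test as higher in DRG neurons, blue points (126) as lower, and the line of blue points along the lower edge are symbols listed at or near 0 in every DRG library.

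BC048546 (chr6:128489837-128493438) showed the greatest rise among isoforms. It was listed at 7594, 6805 and 5393 FPKM in DRG neurons and at 0 in both CGN libraries, and the difference of log2(FPKM + 50) was 7.04 (SE 0.41, adjusted p = 0.0018). Against a group at 0 the size of such a difference is set by the pseudocount and is no fold. An isoform at 0 in a cell type also passed the filter through the other cell type alone. AK184121, within the locus of Sema3b, a secreted axon guidance protein, was at 8025, 4116 and 8170 FPKM in DRG neurons and at 0 and 0.17 in CGNs (7.02, SE 0.49, adjusted p = 0.0021). Sema3b itself was higher in DRG neurons (4.98, SE 0.53, adjusted p = 0.00018). Values for a neighbouring named gene, here and below, are from the test of sums per symbol, except for mt-Nd4. AK142847 was present as a reference and an assembled isoform, and both were at 0 in both CGN libraries: AK142847_j1 was at 3627, 2946 and 3226 FPKM in DRG neurons and AK142847 at 1654, 679.1 and 1432. They lie 19146 bp from Pou2f2, an octamer-binding transcription factor, which was lower in DRG neurons (-3.63, SE 0.65, adjusted p = 0.0027).

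The other isoforms with the greatest rises were not listed at exactly 0 in both CGN libraries, but only AK138412 reached 50 FPKM there. BC026913, whose locus holds the lincRNA 1700020I14Rik, was at 2810, 3269 and 1618 FPKM in DRG neurons and at 1.08 and 0.75 in CGNs (5.62, SE 0.55, adjusted p = 0.0043). AK138412, in the locus of N28178, was at 3159, 5935 and 6028 against 52.2 and 50.1 (5.60, SE 0.47, adjusted p = 0.0031). The table lists the same reference transcript of AK138412 again with other values (377.9, 992.7 and 395.8 against 0 and 13.5), also higher (3.37, SE 0.77, adjusted p = 0.038). Within the group AK081244_j1 varied most between DRG libraries: it lies in the locus of Ank2, an adaptor of the membrane skeleton, and was at 562.3, 6345 and 2743 FPKM against 0.23 and 0 (5.47, SE 1.02, adjusted p = 0.023). BC021395 (Rprd1a locus), BC031853 (locus of the amino acid transporter Slc38a7) and AK008014_j1 (Abhd11 locus) completed the 10, with means of 1707 ± 542, 1558 ± 1011 and 1204 ± 669 FPKM (SD, n = 3) in DRG neurons and no CGN library above 0.28.

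In the other direction the greatest differences were in transcripts listed at 0 in every DRG library. Such transcripts passed the filter through the CGN libraries alone, so their high level there was required for the test. The size of their differences is again set by the pseudocount. AK089118 and AK140370 share a locus (chr2:94092121-94104979) with the processed transcript E530001K10Rik and with Mir670. Of AK089118 3 isoforms were among the 10 with the greatest fall: the reference transcript was at 3507 and 2615 FPKM in CGNs, AK089118_j2 at 1946 and 2166, and AK089118_j1 at 2367 and 1722 (-5.94, -5.39 and -5.37, adjusted p = 0.0059, 0.0082 and 0.0086). AK140370 was at 2196 and 3528 (-5.83, SE 0.68, adjusted p = 0.0067). The same pattern held for AK140632_j3 at 2683 and 3513 FPKM and AK140632_j2 at 2016 and 2402 (-5.96 and -5.49, adjusted p = 0.0057 and 0.0078), which lie 36259 bp from Mef2d, a transcription factor of neurons and muscle that was lower as well (-1.66, SE 0.45, adjusted p = 0.017).

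BC020535_j6 was at 2423 and 2601 FPKM in CGNs, AK012713_j2 in the lincRNA 2810011L19Rik at 2038 and 2301, and AK048630_j1 at 1319 and 2707, all at 0 in DRG neurons (-5.68, -5.47 and -5.28, adjusted p = 0.0067, 0.0079 and 0.01). AF217545 was the exception in being measured in both cell types. Its locus (chr6:30688020-30846754) spans Copg2, a coat protein of Golgi vesicles, the imprinted gene Mest, and Mir335, and it was at 161.5, 343.5 and 376.3 FPKM in DRG neurons and at 16570 and 21077 in CGNs (-5.83, SE 0.45, adjusted p = 0.0026). Copg2 itself, summed over its isoforms, differed by 0.62 (SE 0.34, adjusted p = 0.18).

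**Figure D2:**
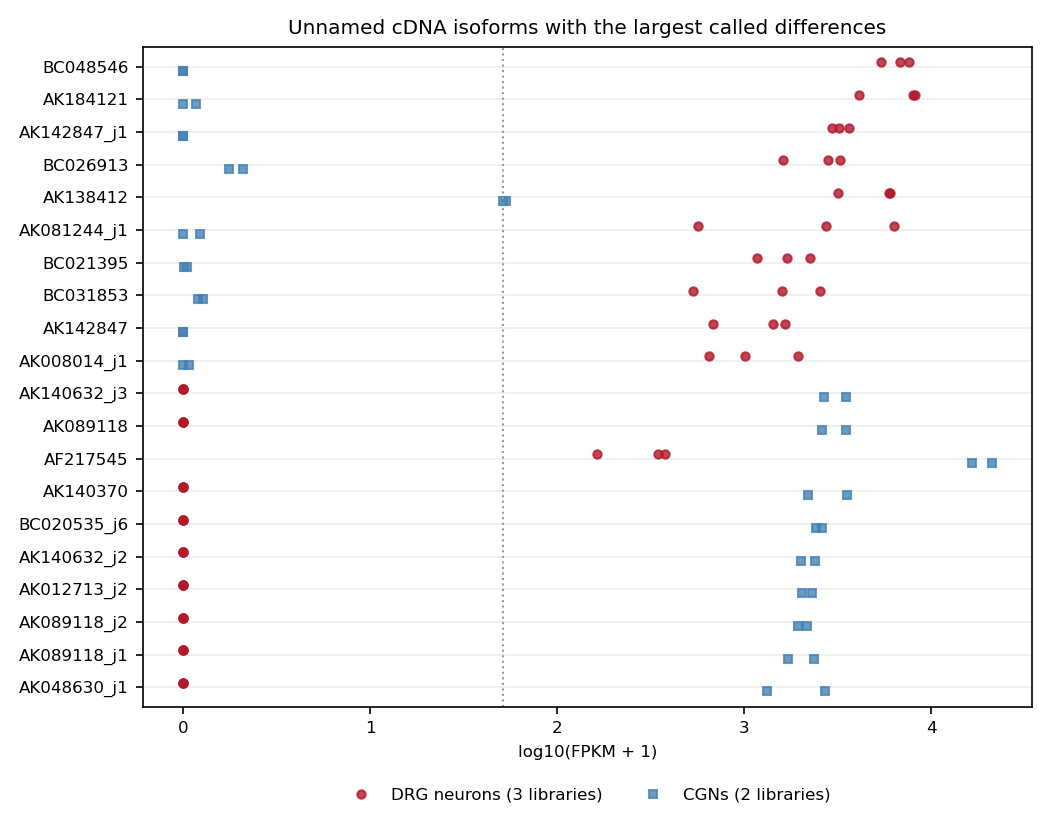
Level of each library, as log10(FPKM + 1), for the 20 unnamed cDNA isoforms with the greatest differences that passed the test, with DRG neurons as red circles (3 libraries) and CGNs as blue squares (2 libraries) and the dotted line at 50 FPKM. Of the upper 10, AK138412 alone has CGN libraries near the line, and of the lower 10, AF217545 alone is above 0 in DRG neurons.

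A switch of this kind, under 1 FPKM in every library of a cell type and at least 50 in every library of the other, was seen for 63 isoforms (55 symbols) in DRG neurons and for 110 (84 symbols) in CGNs. That is 2.21% and 3.86% of unnamed isoforms, and 1.77% of all isoforms in the table in either direction.

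The highest unnamed transcripts were mitochondrial. DQ539915, on the mitochondrial chromosome from 5305 to 15305, was at 425514, 303687 and 255305 FPKM in DRG neurons and 76508 and 143473 in CGNs, which do not overlap but missed the threshold (1.61, SE 0.43, adjusted p = 0.056). AK163440 in mt-Nd2, a subunit of respiratory complex I, was at 188731, 174992 and 176651 against 42408 and 66396 (1.76, SE 0.34, adjusted p = 0.024). AK140265 in mt-Rnr1, a ribosomal RNA, was higher too (65579 ± 33513 against 11987 ± 1061, SD, n = 3 and 2; 2.33, SE 0.46, adjusted p = 0.026). AK018753 in mt-Rnr2 is listed on 2 lines, of which neither passed the test (1.79 and 0.16, adjusted p = 0.053 and 0.86). The mitochondrial chromosome held 45%, 35.7% and 30.8% of the FPKM of unnamed isoforms in DRG libraries and 18.1% and 19.1% in CGN libraries, and the named mt-Nd4 was higher as well (1.76, SE 0.36, adjusted p = 0.028).

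Among nuclear transcripts the highest in DRG neurons was AK051573, which begins or ends 33 bp from the listed locus of Mtap1b, the microtubule-associated protein of growing axons. It was at 47572, 53572 and 68886 FPKM in DRG neurons and 12775 and 22862 in CGNs (1.71, SE 0.37, adjusted p = 0.033). Mtap1b summed over its isoforms differed by 1.19 (SE 0.48, adjusted p = 0.078). AK003315_j1 in the locus of Myeov2 was higher in DRG neurons (21541 ± 7116 against 3924 ± 2671 FPKM; 2.56, SE 0.54, adjusted p = 0.031). In CGNs, BC056393 in the locus of Elavl3, a neuronal RNA-binding protein, was at 12046 and 20359 against 5428, 6277 and 9406, which missed the threshold as an isoform (-1.19, SE 0.39, adjusted p = 0.093). AK031234_j1 in that of the splicing factor Sfpq was lower in DRG neurons (4669, 4114 and 4301 against 10712 and 18737; -1.69, SE 0.34, adjusted p = 0.028). Sfpq summed over its own isoforms differed by -0.42 (SE 0.35, adjusted p = 0.37).

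Several unnamed clones lie in the loci of known long noncoding RNAs, a group singled out after the values were seen. AK019083, in the locus of the nuclear RNA Malat1, was abundant in both cell types and overlapped between them (12668, 21687 and 41367 FPKM in DRG neurons, 33680 and 35207 in CGNs; -0.61, SE 0.51, adjusted p = 0.47). AB294524, in that of Miat, ranged from 697.7 to 11831 FPKM over the DRG libraries as a sum of 9 isoforms, with 12108 and 19513 in CGNs (-2.14, SE 0.92, adjusted p = 0.093). Its CGN libraries lay above the DRG libraries, and the DRG libraries differed widely among themselves.

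Rian is a maternally expressed RNA of the imprinted domain of Gtl2, and 2 clone names fall on it. AK017440, summed over its isoforms in 4 loci of the domain, was at 38013, 49028 and 92316 FPKM in DRG neurons and 9138 and 14993 in CGNs (2.24, SE 0.48, adjusted p = 0.006). Of its isoforms, AK017440_j15 was the highest (21108, 26051 and 47102 against 5943 and 10189, with a difference of 1.92, SE 0.45, adjusted p = 0.04). It lies at chr12:110894045-110896330, outside the locus matched to Rian (chr12:110841972-110890184). In the Rian locus alone AK017440 summed to 14717, 20409 and 25479 FPKM in DRG neurons and 2405 and 4120 in CGNs. AF498302 shares the Rian locus and behaved otherwise: as a sum it ranged from 37.7 to 4027 FPKM in DRG neurons against 842.1 and 1032 in CGNs (-0.17, SE 1.31, adjusted p = 0.93). AK077315, whose locus in the same domain holds Mir382, Mir134, Mir485, Mir453, Mir154, Mir496 and Mir377, was at 90.3, 109.7 and 207.5 against 0 and 38.0 and did not pass (1.43, SE 0.59, adjusted p = 0.081). How reads were divided between names in 1 locus cannot be seen from the FPKM.

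Of the 41 symbols at a single locus that holds a named microRNA, 35 could be tested as sums, and 2 were higher and 11 lower in DRG neurons (5.71% and 31.4%, against 28.4% and 9.22% of all symbols tested). The remaining 22 did not pass. Of the 35, 6 reached 50 FPKM only in CGN libraries, and names that share a locus (at Mir670, Mir128-2, Mir344, Mir101a, Mir421 and Mir29b-2) are not independent. The lower count was 8 to 15 under the alternatives that kept both CGN libraries or the symbols tested with them, and 4 and 2 where leaving out CGN replicate 1 or 2 also removed symbols from the test. With equal totals, median ratio and quantile scaling the share lower was 40.5%, 38.9% and 38.2%, against 26.3%, 21.2% and 21.2% of all symbols. Libraries were made from polyadenylated RNA, so the values are of the long transcripts and not of mature microRNAs, and the strand was not kept.

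AK013308, in the lincRNA C130071C03Rik with Mir9-2 (miR-9, of neural progenitors, at chr13:83878411-83878497), was at 50.4, 60.3 and 47.6 FPKM in DRG neurons and 2057 and 2415 in CGNs (-4.47, SE 0.55, adjusted p = 0.00036). AK044422, in A930011O12Rik with Mir124a-1 (miR-124 is the microRNA most typical of neurons), was at 6.77, 481.1 and 367.5 against 1939 and 1779 (-3.04, SE 0.90, adjusted p = 0.026). Both groups of libraries stood apart in each, although the DRG libraries of AK044422 spread over a wide range. AK006051 is at Mir212 and Mir132, a pair of microRNAs induced by neuronal activity, and was at 0, 45.4 and 0 against 1770 and 989.4 (-4.47, SE 0.62, adjusted p = 0.0007). Its locus also holds Dph1, an enzyme of diphthamide synthesis, which was higher in DRG neurons.

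At Mir128-2, inside Arpp21, a neuronal phosphoprotein gene, AK013806 had a mean of 127.9 ± 217 FPKM (SD, n = 3) in DRG neurons and 793.3 ± 78.2 (n = 2) in CGNs (-2.99, SE 0.92, adjusted p = 0.03), and AK048592 was at 0 in every DRG library with a CGN mean of 129.7 (adjusted p = 0.034). Clones were also lower at Mir101a (AK002929, 0 against a mean of 143.9), at Mir344 and Mir344c (AK080655, 97.0 ± 128 against 781.3 ± 99.4) and at Mir421 and Mir374 (BC076616, 94.0 ± 51.2 against 893.1 ± 492), with adjusted p = 0.015, 0.018 and 0.01. Other clones of these loci did not pass: AK021368 at Mir101a was at 155.1, 0.82 and 486.2 against 666.3 and 1274 (-2.46, SE 0.92, adjusted p = 0.061), and AK035901 and AK083195 at Mir344 (-0.57 in both, adjusted p = 0.59) and AK035525 at Mir421 (0.58, adjusted p = 0.73) overlapped between the cell types. AY096003 at Mir155, which is known from immune cells, was at 0 in every DRG library and averaged 229.5 ± 283 in CGNs, and did not reach the level for testing.

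The 2 higher symbols were AK008813 and AK078566. AK008813, in 2210403K04Rik with Mir22, was at 1702 ± 264 FPKM (SD, n = 3) in DRG neurons and 459.0 ± 49.9 (n = 2) in CGNs (1.78, SE 0.43, adjusted p = 0.011). AK078566, in the Hoxb cluster at Hoxb9 with Mir196a-1, was at 671.2, 339.4 and 423.4 in DRG neurons and at 0 in both CGN libraries (3.35, SE 0.58, adjusted p = 0.0023). Hox genes set position along the body axis and are used in the spinal levels from which DRG neurons come. The other unnamed clone at a Hox cluster, AK039882 at Hoxa4, was listed at 0 in all 5 libraries.

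**Figure D3:**
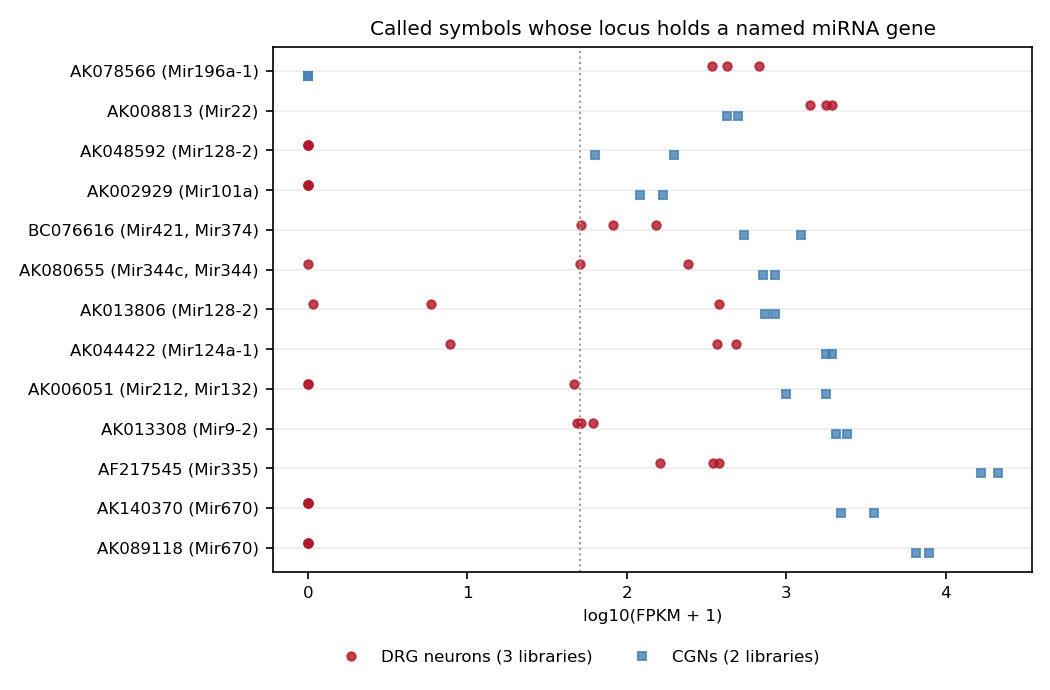
Level of each library, as log10(FPKM + 1) summed over isoforms, for the 13 unnamed cDNA symbols whose locus holds a named microRNA gene (in parentheses) and that passed the test, with DRG neurons as red circles, CGNs as blue squares and the dotted line at 50 FPKM. The upper 2 were higher in DRG neurons and the other 11 lower. The libraries of the cell types do not overlap in any of them, which selection by the test favours.

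Loci without any GENCODE M1 gene were looked at separately, a group singled out after its values were seen. Of the 129 symbols there, 41 could be tested, and 8 were higher and 17 lower in DRG neurons (19.5% and 41.5%, against 28.4% and 9.22% of all symbols tested). The filter bears on this: 17 of the 41 reached 50 FPKM only in CGN libraries and 9 only in DRG libraries, where 3.4% and 6.62% of all symbols tested did. Of the 129, 80 were listed at 0 in all 5 libraries and cannot be called. With no filter these stay in the total, and 18 of the 129 were lower (14%, against 6.3% of all symbols) and 6 higher. The share lower was 42.9%, 43.9% and 40.5% with equal totals, median ratio and quantile scaling, where that of all symbols rose to 26.3%, 21.2% and 21.2%. The lower count was 16 to 18 under the other alternatives, except that it was 0 without CGN replicate 1 or 2 when symbols at 50 FPKM in a single library then left the test, and the higher count was 3 to 10, lowest without CGN replicate 1. No DRG library held a value above 0 for 15 of the 17 lower symbols, and of the 8 higher symbols 4 were at 0 in both CGN libraries. Symbols that entered the test through a single cell type are low in the other by selection, and the share at 0 was not counted over all called symbols.

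The highest of the lower kind were AK082072 (1776 and 3314 FPKM in CGNs), AK043163 (1873 and 3142), AK080443 (1511 and 2143), AK012387 (1013 and 1904) and AK005898 (1191 and 1533), each at 0 in every DRG library with adjusted p = 0.00016, 0.00015, 0.0002, 0.00032 and 0.00027. AK043163 lies 59413 bp from Ephb1, an ephrin receptor, and AK012387 4523 bp from Cdkn1b, an inhibitor of the cell cycle, and both of these genes were lower in DRG neurons too. The nearest named genes of AK082072, AK080443 and AK005898 (Tmem161b, Bmp2k and Eif4g2) did not pass (-2.23, -0.143 and 0.62, adjusted p = 0.11, 0.87 and 0.29). AK043331, at 252.9 and 283.0 in CGNs and 0 in DRG neurons, has as its nearest named gene the granule neuron gene Zic1, 530707 bp away. The higher kind included AK045786 (1267, 1070 and 832.0 FPKM in DRG neurons), AK089981 (804.7, 923.8 and 1153) and AK079861 (640.0, 670.6 and 564.1), all at 0 in both CGN libraries (adjusted p = 0.00043, 0.00049 and 0.001). AK163121, 1131 bp from the neurotrophin receptor gene Ntrk3, was at 526.6, 957.1 and 979.2 against 159.0 and 138.4 (2.09, SE 0.56, adjusted p = 0.018). Ntrk3 itself did not pass (-0.339, SE 0.742, adjusted p = 0.75).

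AK035645 and BC070450, singled out after their values were seen, have the same nearest named gene, Snrpn of the imprinted Prader-Willi region, and went opposite ways. AK035645 (chr7:67114494-67119208) was at 1035, 3596 and 3403 FPKM in DRG neurons and 93.8 and 381.0 in CGNs (3.26, SE 0.68, adjusted p = 0.0056). BC070450 (chr7:67084870-67091525) had 288.2 and 800.7 in CGNs and was at 0 in all DRG libraries (-3.42, SE 0.60, adjusted p = 0.0023). They lie 8766 and 36449 bp from Snrpn, and the libraries of the cell types did not overlap in either.

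The locus of 447 symbols (36.8%) overlapped that of a named gene, 230 lay within 5 kb of one, 287 at 5 to 50 kb and 251 farther off. The median distance of those that overlapped none was 22136 bp. Of 356 overlapping symbols tested 14.3% were higher and 14% lower, of 175 within 5 kb 20.6% and 10.9%, of 188 at 5 to 50 kb 25.5% and 13.3%, and of 152 over 50 kb 18.4% and 21.1%, where 28.4% and 9.22% of all symbols tested were. Of the 152 over 50 kb, 25 (16.4%) reached 50 FPKM only in CGN libraries and 26 (17.1%) only in DRG libraries. Of the 356 overlapping, 30 (8.43%) and 45 (12.6%) did, against 3.4% and 6.62% of all symbols tested. Symbols that entered the test through a single cell type are low in the other by selection. The higher share was below that of all symbols in each distance class, and the lower share above it. Over 50 kb scaling narrowed the second difference: the lower share was 29.5%, 26.6% and 25% with equal totals, median ratio and quantile scaling. All symbols had 26.3%, 21.2% and 21.2%. For overlapping symbols the lower share was 32.6%, 28.6% and 26.2%, and its distance from all symbols in percentage points did not narrow. Without CGN replicate 1 or 2 the lower symbols over 50 kb fell from 32 to 3 or 4 when symbols left the test, and to 26 in both cases when they were kept, and the higher symbols over 50 kb fell from 28 to 13 and 7 without CGN replicate 1.

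**Figure D4:**
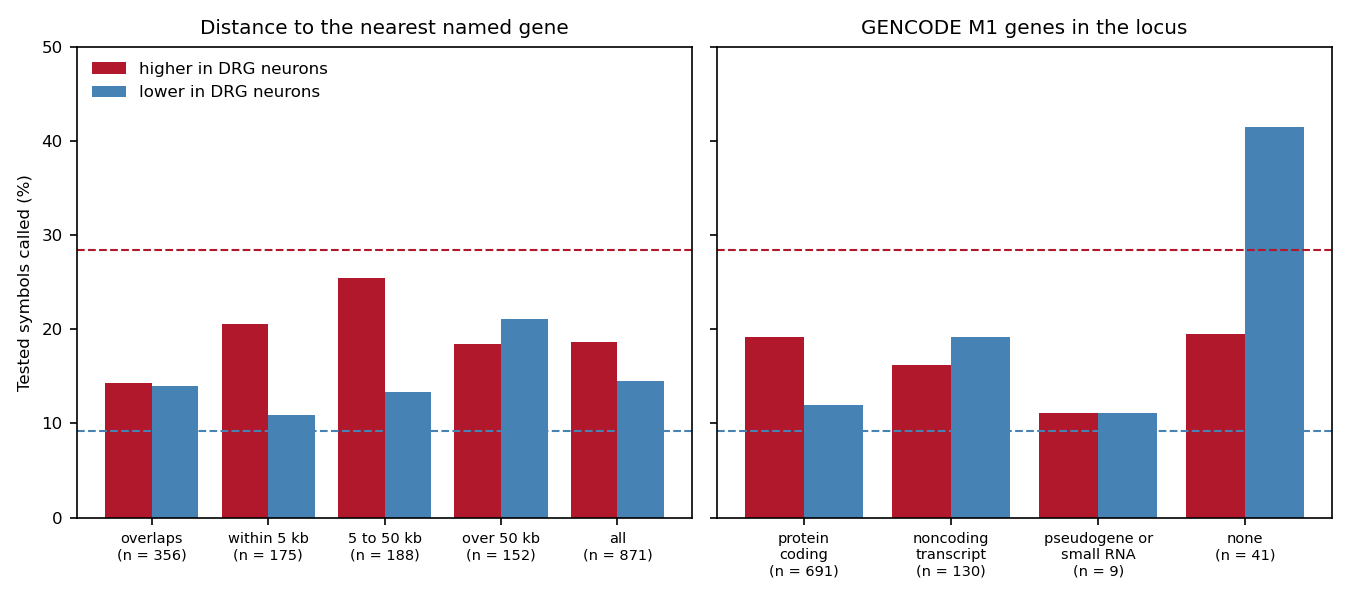
Share of tested unnamed cDNA symbols that were higher (red bars) or lower (blue bars) in DRG neurons, in percent, by distance to the nearest named gene locus (left) and by the GENCODE M1 genes in the locus (right), with the number tested under each pair and dashed lines at the shares of all symbols tested (28.4% higher, 9.22% lower). The tallest blue bar is the 41.5% lower among 41 symbols with no GENCODE gene, of which 17 passed the filter through CGN libraries alone. Without the filter it was 14% of 129, of which 80 were listed at 0 in all libraries.

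Unnamed clones next to a gene mostly had the sign of that gene, but by no large margin. Of 333 overlapping pairs with both tested, the sign of the difference was the same in 64.6%, of 79 pairs 1 to 500 bp apart in 68.4%, of 346 pairs up to 50 kb apart in 62.7%, and of 137 pairs farther apart in 55.5%. For named genes and their nearest other named gene these shares were 58.8%, 61.8%, 59% and 56.4%. Pearson's r of the differences across loci was 0.35, 0.52, 0.23 and 0.16 for the unnamed symbols and 0.20, 0.10, 0.09 and 0.08 for the named genes, as descriptions over loci that share the same 5 libraries and, where they overlap, the same reads to divide. Where both passed the test, 34 overlapping pairs went the same way and 10 opposite ways (77.3% the same, against 77.4% of such pairs of named genes).

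**Figure D5:**
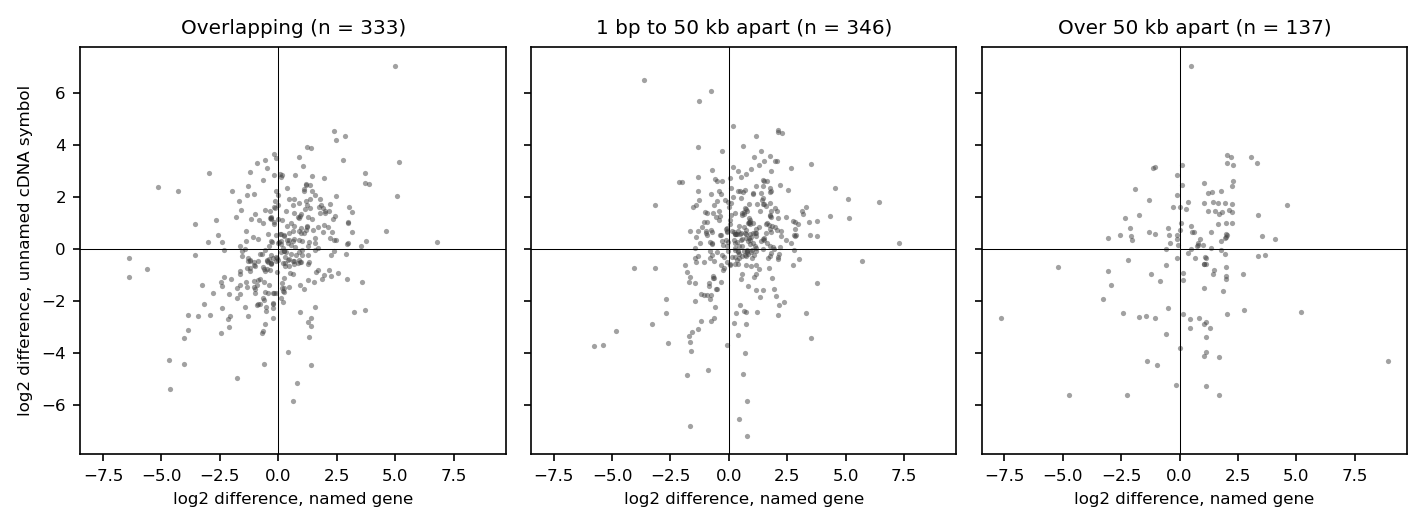
Log2 difference of FPKM + 50 (DRG neurons minus CGNs) of each unnamed cDNA symbol (y axis) against that of its nearest named gene (x axis), for 333 overlapping pairs, 346 pairs 1 bp to 50 kb apart and 137 pairs over 50 kb apart. The points lean from lower left to upper right when loci overlap (r = 0.35) and little when they are over 50 kb apart (r = 0.16).

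The clones closest to a gene that moved the same way were AK192218, 7 bp from Pdcd6ip, AK180240, 24 bp from the dynein subunit gene Dync1li1, AK013557, 76 bp from the glutamate transporter gene Slc1a2, AK017645, 102 bp from Ube1l2, AK135548, 112 bp from the kinase gene Slk, and AK021127_j1, 335 bp from the RNA-binding protein gene Msi2. AK013557 was at 53.4, 69.9 and 65.2 FPKM in DRG neurons and 1333 and 1512 in CGNs (-3.71, SE 0.61, adjusted p = 0.017), and Slc1a2, which glia take up glutamate with, was lower as well (-5.39, SE 0.48, adjusted p = 7.5e-05). Slc1a2 is on the astrocyte list above. AK180240 was at 14812, 16626 and 10897 against 3094 and 5558 (1.73, SE 0.38, adjusted p = 0.033). AK192218 and AK135548 were higher by 1.96 and 1.65 and AK017645 by 3.36, and AK021127_j1 was listed at 0 in DRG neurons and at 253.1 and 116.7 in CGNs.

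Those closest to a gene that moved the other way included BC025575, 168 bp from Grn (progranulin, a lysosomal and secreted protein) in the locus of Fam171a2. It was lower in DRG neurons (665.3, 139.2 and 895.0 against 3385 and 4757 FPKM; -3.01, SE 0.75, adjusted p = 0.046), while Grn was higher (1.21, SE 0.34, adjusted p = 0.02). BC037034 was higher (5025, 4680 and 5033 against 1221 and 1800; 1.69, SE 0.33, adjusted p = 0.025) at 6881 bp from Gpc2, a proteoglycan of developing neurons, which was lower (-3.18, SE 0.68, adjusted p = 0.0062). BC018242_j2 was lower by -2.10 at 18125 bp from Rab3d, which had the opposite sign. AK142847 near Pou2f2 and AK138412 near Dnajb5, described above, were also of this kind.

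Of the 6 tested clones farthest from a named gene, AK162963_j1 alone passed the test. It had 716.0 and 182.5 FPKM in CGNs and 0 in all DRG libraries (-3.08, SE 0.72, adjusted p = 0.039), 2250182 bp from Rgs13. AK140520_j2, at 2318415 bp from Rgs13, lies on Fam5c in GENCODE M1 and was at 17.7, 19.0 and 13.6 against 55.2 and 332.8 (-1.59, SE 0.70, adjusted p = 0.18). AK149188_j1, AK162636 and AK085876 did not overlap between the cell types and had greater levels in DRG neurons without passing (1.67, 1.84 and 1.73, adjusted p = 0.24, 0.084 and 0.17). AK188812_j1 overlapped (0.28, adjusted p = 0.88).

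Single clone names could stand for many isoforms: 508 symbols had more than 1 and 36 had at least 10. BC066100 had the most, 45, in the locus of 6720401G13Rik on the X chromosome, followed by BC038349 with 22 in that of Ppfia1, AK080946 with 20 in that of the synaptic phosphatase Synj1, and BC051232 with 18 in that of the anchoring protein Akap13. As sums none of these passed the test. BC066100 ranged from 1502 to 8949 FPKM over DRG libraries and was at 3036 and 4287 in CGNs, whereas AK080946 was at 4159, 4816 and 4972 against 2449 and 4377 (0.49, SE 0.36, adjusted p = 0.3). Isoforms of only 1 symbol passed the test in both directions. For AK157963, which lies on Iqsec1, an exchange factor of synapses, in GENCODE M1, the isoform AK157963_j4 was at 684.9, 1370 and 320.8 against 36.2 and 0 (3.47, SE 0.83, adjusted p = 0.042), and AK157963_j9 was at 2.13 or less in DRG neurons and at 355.3 and 671.7 in CGNs (-3.42, SE 0.64, adjusted p = 0.024), while AK157963 summed over its isoforms was at 2391, 2090 and 2238 against 1563 and 1898 (0.37, SE 0.35, adjusted p = 0.44).

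Clones that fall on a gene of sensory neurons were also among the called symbols, a group singled out after the values were seen. AK031437 and AK087529 share the locus of Fam38b, which encodes the touch channel Piezo2, and were at 1592, 2014 and 2454 FPKM and at 1130, 1168 and 1743 in DRG neurons, against 36.2 and 43.9 and 0.80 and 14.7 in CGNs (4.50 and 4.58, adjusted p = 0.00027 and 0.00037). In CGNs, AK018772 at Lhx1 and AK086602 in Nfia, transcription factor genes of cerebellar development, were at 1285 and 3272 and at 770.3 and 1387 FPKM, both at 0 in every DRG library (adjusted p = 0.00026 and 0.00046), and both genes were lower too. Lhx1 in the cerebellum is known from Purkinje cells. Of 4 Purkinje cell genes 3 were lower in DRG neurons, but their summed FPKM overlapped between the cell types (163.4 to 6290 against 5760 and 11577). The part of these cells in the difference was not tested.

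Of the 23 symbols that RefSeq lists, 18 were tested as sums, and 6 were higher and 1 lower in DRG neurons (33.3% and 5.56%, near the 28.4% and 9.22% of all symbols tested). BC004004 was at 12714, 11007 and 8811 FPKM against 1634 and 3530 (2.13, SE 0.39, adjusted p = 0.0029). BB146404, now Calhm5, of the calcium homeostasis modulator channel family, was at 1119, 926.0 and 783.9 against 23.7 and 43.4 (3.57, SE 0.56, adjusted p = 0.0013). BC034090 was the lower one, at 90.9, 54.9 and 56.9 against 361.4 and 875.9 (-2.41, SE 0.62, adjusted p = 0.014). In BB146404 and BC034090, as in the others named here, the libraries of the cell types did not overlap.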

How the data were processed

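The authors used TopHat for alignment (mm9), Cufflinks for assembly and Cuffdiff for the levels, and deposited FPKM per isoform and library with upper-quartile normalization and 95% confidence bounds. Read counts were not used here, so the depth behind a value is unknown. The library kit did not mark strand, so a clone and a transcript antisense to it cannot be told apart, and 42 unnamed isoforms share a reference ID with another line of other values. The members and lists were chosen with earlier results of these data known.

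Isoforms at 50 FPKM or more in at least 2 of 5 libraries were compared (3 DRG, 2 CGN) by limma 3.58.1 with a trend (R 4.3.3) on log2(FPKM + 50), which understates the change of low isoforms, with Benjamini-Hochberg adjustment over all isoforms, and likewise on sums per symbol. Tests were tried on simulated data. Named isoforms were the 10 with the greatest difference in each direction, the highest, those at 0 or nearly so in 1 cell type, the symbols with most isoforms, those farthest from a named gene, and those nearest a called gene of the same or opposite sign. Groups singled out after values were seen are said to be so. Alternatives were the pseudocount, filter, scaling, trend, replicate block and each library left out. Distances were taken between loci in the table. Annotation came from GENCODE M1 (NCBIM37) and RefSeq names and microRNAs (GRCm38). Results for some clones and genes are not reported here.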

Additional observations from a re-analysis of the deposited data

How the results depend on the processing

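The counts of unnamed isoforms called depended on the filter, the scaling and single libraries. Without a filter 58 were higher and 102 lower, with equal totals 288 were lower and with median ratio scaling 260, and without CGN replicate 1, with the isoforms kept as tested, 19 were higher. Sums per symbol gave 163 higher. Over the libraries left out the range was 9 to 98 higher and 11 to 38 lower. For symbols, equal totals gave 99 higher and 246 lower, median ratio scaling 217 lower, quantile normalization 203 lower (27.9%, 24.8% and 23.1% lower, against 26.3%, 21.2% and 21.2% of all symbols, where FPKM as deposited gave 14.5% against 9.22%), no filter 106 higher, and CGN replicate 1 left out with the symbols kept 55 higher, with ranges of 89 to 187 higher and 25 to 151 lower over the libraries left out. Deviations of same-numbered libraries from their group means had r = -0.012 and 0.001. With 2 CGN libraries these deviations mirror each other, so the values cannot decide whether the numbers pair the samples. With the replicate block the counts were 101 higher and 141 lower isoforms, and 136 higher and 119 lower symbols. Among the isoforms named, AK188812_j1 alone changed sign: its difference of 0.28 was -0.32 with equal totals, -0.19 with median ratio scaling, -0.082 with a pseudocount of 1 FPKM, -0.00175 with the replicate block and -0.388 to 1.04 over the libraries left out (-0.388 without CGN replicate 2, also with the isoforms kept as tested). The cause of these shifts was not tested, except that with 1 CGN library left, isoforms listed in CGNs alone cannot reach 50 FPKM in 2 libraries. With 3 and 2 libraries and no read counts, low levels cannot be given a counting error.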
